A study of Ovis aries with 4 samples.

Results

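The genes described here handle fatty acids and phospholipids, and they were taken by name from the genes that carried an m6A peak in sheep ovary. Their names begin with ACSL, ACSS, ACOT, ELOVL, FADS, ACOX, ACAD, PLIN, LPIN, LPCAT, FABP, APOA to APOE, APOL, PNPLA, DGAT, GPAT, AGPAT, MBOAT, PLA2G, PLD, ABHD, STARD or OSBPL. Of 5261 genes with a peak, 43 fitted these names. The choice needed a listed peak in either list and used no fold or p-value. The names also took 6 GPATCH genes, which encode proteins with a G-patch domain and are not lipid genes, so 37 members are lipid genes by name.

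The samples were ovaries of Cele black sheep, 5 to 6 years old in the aged group and 1 to 2 years old in the young group, with no genetic change or treatment named. Each age had an immunoprecipitate of RNA with an antibody against N6-methyladenosine (m6A) and an input library, 4 samples in all. A single peak list per age was used, 3656 aged and 4378 young peaks. The labels do not say whether a sample pooled several animals. As no age had a replicate, the ages could not be tested against each other. Intervals of shares given below are Wilson 95% intervals and take in counting error alone. Neither the depth of the libraries nor the input was analysed here, so how much of a transcript stood behind its peak is unknown. In whole ovary, fewer cells of a type and less RNA per cell cannot be told apart. Of 18 marker genes of ovarian cells, 8 had a peak (1 aged-only, 5 young-only, 2 shared by the ages), among them FSHR, STAR and NOBOX, while FOXL2, AMH and CYP19A1 had none. Of 7 adipocyte markers, PPARG alone had a peak, a young one, and ADIPOQ, LEP and PLIN1 had none. Of 10 macrophage markers, 3 had a young peak alone and 2 had a peak at both ages. Of 7 hepatocyte markers TF alone had a peak, an aged one. Their part in the results below was not tested.

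m6A is a methyl mark on adenosines within messenger RNA, laid down mostly near the end of the coding region and in the 3' UTR, and read by proteins that act on splicing, translation and decay. Fatty acids enter metabolism as acyl-CoA. Acyl-CoA is lengthened, desaturated, oxidised in mitochondria and peroxisomes, or built into triglycerides and phospholipids, and lipid transfer proteins move the products between membranes. In the ovary these routes feed membrane growth of follicles, the lipid droplets of steroid-making cells and the release of arachidonic acid for prostaglandins. Roles of single genes are given as known from human and mouse.

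Fatty acid and phospholipid genes were spread over both peak lists. A gene was called aged-only or young-only when the other list held no peak for it, which describes the lists and not a gain or loss of methylation. Of the 43 genes, 13 were aged-only (30.2%, 18.6 to 45.1), against 26.9% of all genes with a peak. Another 15 were young-only (34.9%, 22.4 to 49.8), against 41.3% of all genes, and 15 had a peak in both lists (34.9%, 22.4 to 49.8), against 31.8%. All 3 background shares lay within the intervals of the members. Without the GPATCH genes the counts were 12 aged-only, 11 young-only and 14 in both lists.

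**Figure D1:**
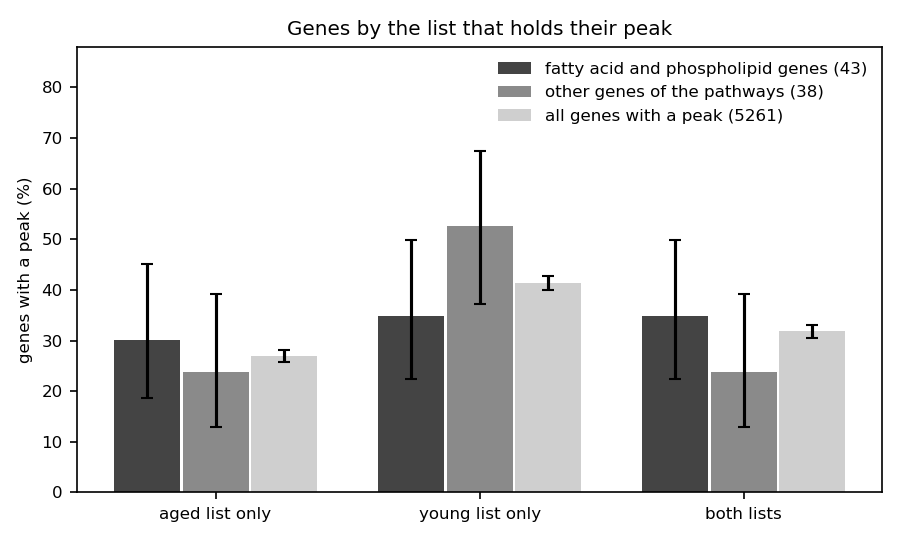
Bars give the share of genes with a peak, in percent, found in the aged list only, in the young list only or in both lists, for the 43 fatty acid and phospholipid genes, 38 other genes of the same pathways and all 5261 genes. Error bars are Wilson 95% intervals, and the intervals of the 43 genes span the bars of all genes in each class.

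The deposited fold enrichment, the ratio of immunoprecipitate to input that the authors give for each peak, was at least 1.5 for every peak in the lists. The 32 aged peaks of these genes had a median fold of 2.00 (from 1.5 to 5.12), beside 1.88 over all aged peaks. Their 34 young peaks had a median fold of 1.81 (from 1.5 to 3.5), beside 2.05 over all young peaks. The members thus lay above the middle of the aged list and below the middle of the young list, with exact binomial 95% intervals of the median of 1.75 to 2.5 in aged and 1.71 to 2.12 in young members. Each of those intervals contains the median of its whole list. By the deposited log10 p, aged member peaks had a median of -5.03 beside -6.22 over the aged list, and young member peaks -14.7 beside -15.3 over the young list. Most of the genes had a single peak, 24 of 28 in the aged list and 27 of 30 in the young list. So did most genes of the whole lists, 2621 of 3086 aged and 3380 of 3846 young.

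A stricter fold of at least 2.00, the median over both lists, left fewer of these genes with a peak. At that fold 28 genes remained in a list, with 15 aged-only (53.6%), 12 young-only (42.9%) and 1, ACAD10, in both (3.57%). Here aged-only and young-only mean no peak of at least 2.00 in the other list. Of the aged-only genes, ELOVL4, FADS2, GPATCH2L, LPCAT1, PLA2G2C and PLA2G2F had young peaks below 2.00. Of the young-only genes, MBOAT2, OSBPL2, OSBPL5, OSBPL6 and PNPLA4 had aged peaks below 2.00. Over all genes at that fold, 26.1% were aged-only, 54.7% young-only and 19.1% in both. No interval was computed for the shares of the 28 genes, so these differences are not read as a departure. Aged peaks of ACAD10, AGPAT5, ELOVL4 and PLA2G2F and young peaks of GPATCH1 and MBOAT2 stood exactly at 2.00. The member counts at this fold thus rest in part on peaks at the limit itself. Without the depth of the libraries, it is unknown whether a given fold has the same meaning at both ages.

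**Figure D2:**
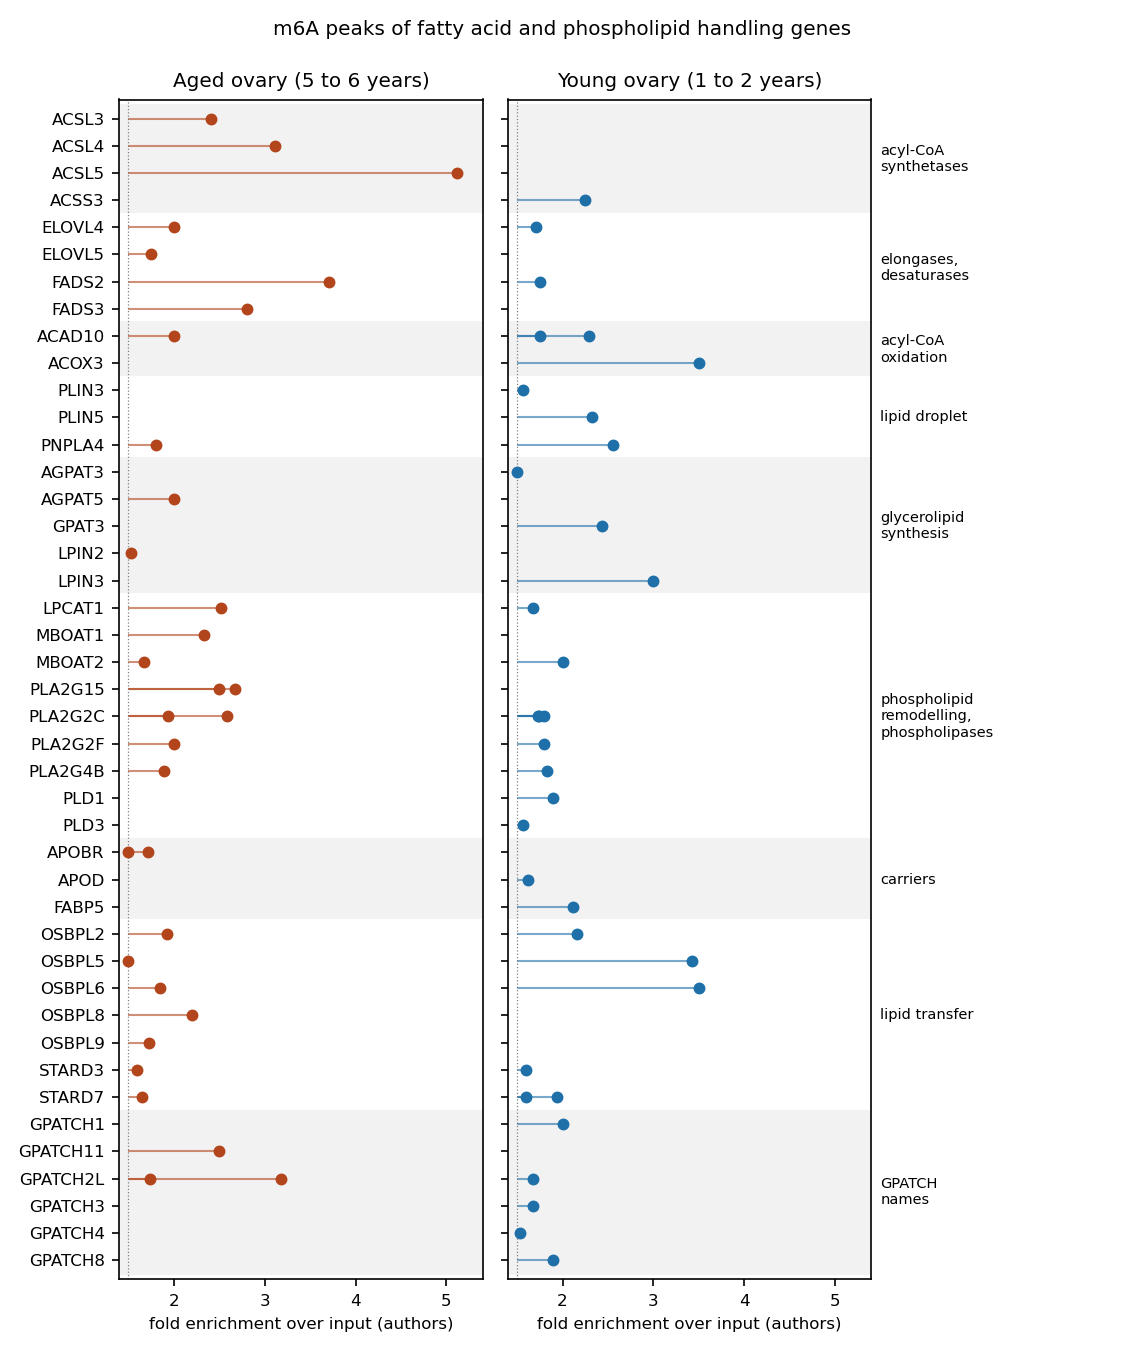
Each dot is a peak of a fatty acid or phospholipid gene, at its fold enrichment over input as given by the authors, with aged ovary in the left panel and young ovary in the right panel. Rows are genes grouped by role, the dotted line marks the lowest deposited fold of 1.5, and ACSL5 in aged ovary lies farthest to the right at 5.12.

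Of 4 genes for enzymes that activate fatty acids, 3 were aged-only, a share with an interval of 30.1 to 95.4%, beside 26.9% of all genes with a peak. All 3 long-chain acyl-CoA synthetase genes with a peak, ACSL3, ACSL4 and ACSL5, were aged-only, out of 5 annotated ACSL genes. ACSL5, whose product is found on mitochondria and the endoplasmic reticulum, had a fold of 5.12 (adjusted p 3.16e-16), the 12th highest of the 3656 aged peaks. The peak lay on chromosome 22 (32488552 to 32488700) and carried a stop codon label. Positions are those of the deposited files, whose genome build is not named in the sources used here. ACSL4, which prefers arachidonic acid and sets the supply of oxidisable phospholipids in ferroptosis, had a fold of 3.11 (adjusted p 2.88e-10) with a 3' UTR label. That peak covered 350 bases of transcript over a genomic span of 8846 bases. ACSL3, which serves lipid droplet formation, had a fold of 2.41 (adjusted p 4.79e-05). ACSS3, a mitochondrial synthetase for propionate, was the young-only synthetase, with a fold of 2.25 (adjusted p 2.14e-09).

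Of 4 elongase and desaturase genes with a peak, 2 were aged-only, 2 were in both lists and none was young-only (0 to 49%). The shares of all genes were 26.9% aged-only, 31.8% in both and 41.3% young-only, and each lay within the wide interval of the 4 genes. FADS2, which carries out the first desaturation of polyunsaturated fatty acid synthesis, had a fold of 3.71 in the aged list (adjusted p 3.55e-08) and 1.75 in the young list (adjusted p 2.51e-11). The 2 peaks ended at the same base of chromosome 21 (36946669), the aged peak starting 49 bases further 5'. FADS3, a related desaturase gene and the next coding gene on the other strand, was aged-only with a fold of 2.80 (adjusted p 2.69e-05). Its peak lay 5062 bases from that of FADS2. ELOVL4, an elongase of very long chain fatty acids, had a fold of 2.00 in the aged list (adjusted p 0.0105) and 1.71 in the young list (adjusted p 3.16e-21). The ELOVL4 peaks did not overlap, the aged peak with a 3' UTR label lying 1592 bases 5' of the young peak with a stop codon label. ELOVL5, which lengthens polyunsaturated fatty acids, was aged-only at 1.75 (adjusted p 0.0002).

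Of 2 genes for acyl-CoA oxidation, 1 was young-only and 1 was in both lists, and of 3 genes for perilipins and lipases, 2 were young-only and 1 was in both. Over all genes 41.3% were young-only and 31.8% in both. ACOX3, a peroxisomal oxidase of branched-chain acyl-CoA, was young-only with a fold of 3.50 (adjusted p 2e-11) on chromosome 6 (115366374 to 115366573). Together with OSBPL6 it had the highest young fold among these genes. ACAD10, of the acyl-CoA dehydrogenase family, had an aged peak at 2.00 (adjusted p 5.89e-07), against young peaks at 2.29 (adjusted p 5.01e-12) and 1.75 (adjusted p 3.16e-11). On chromosome 17 the aged ACAD10 peak ran from 55464856 to 55469237 across introns, against young peaks from 55463162 to 55463312 and from 55464806 to 55465105. It overlapped the downstream young peak. PNPLA4, a lipase of triglycerides and retinyl esters, had folds of 1.80 in the aged list (adjusted p 1.32e-06) and 2.56 in the young list (adjusted p 1e-14). Of the perilipins that coat lipid droplets, PLIN5 (2.33, adjusted p 3.24e-06) and PLIN3 (1.56, adjusted p 3.98e-11) were young-only. Among lipid droplet genes without a peak in either list were PLIN1, PLIN2 and PNPLA2, which encodes the main triglyceride lipase.

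Of 5 genes of glycerolipid synthesis, 2 were aged-only, 3 young-only and none in both lists (0 to 43.4%), an interval that contains the 31.8% of all genes. The aged-only members were AGPAT5 (2.00, adjusted p 0.000229), which acylates lysophosphatidic acid, and LPIN2 (1.53, adjusted p 2e-14), a phosphatidate phosphatase gene. The young-only members were the phosphatidate phosphatase gene LPIN3 (3.00, adjusted p 1.26e-16), GPAT3 (2.44, adjusted p 3.98e-17), which starts the pathway by acylating glycerol phosphate, and AGPAT3 (1.5, adjusted p 1.26e-21). None of the 3 annotated genes of the DGAT enzymes, which catalyse the last step to triglyceride, had a peak (0 to 56.1%). That interval contains the 29.9% of all annotated coding genes, other than those with LOC names, that had a peak, so nothing is read from this zero.

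Phospholipases and lysophospholipid acyltransferases were the largest group, with 9 genes, of which 5 had a peak in both lists (55.6%, 26.7 to 81.1), beside 31.8% of all genes. PLA2G2C, a secretory phospholipase gene, had 2 aged peaks at folds of 2.59 and 1.94, against 3 young peaks at 1.73, 1.80 and 1.74. Adjusted p-values were 1.17e-08 and 1.29e-07 for the aged peaks, and from 3.98e-15 to 1.26e-14 for the young peaks. On chromosome 2 the aged peaks ran from 246216685 to 246217035 and from 246217484 to 246217733. The young peaks ran from 246216785 to 246217035, from 246217134 to 246217284 and from 246217584 to 246217833, so that the middle young peak had no aged counterpart. PLA2G2F, its next coding neighbour on the other strand and likewise a secretory phospholipase gene, had folds of 2.00 in the aged list (adjusted p 0.000479) and 1.80 in the young list (adjusted p 2.51e-14). PLA2G4B, a cytosolic phospholipase gene, had 1.89 (adjusted p 3.55e-05) and 1.83 (adjusted p 5.25e-09) in the aged and young lists. All 3 phospholipase genes shared by the lists had overlapping peaks.

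Of the acyltransferases that refill lysophospholipids, LPCAT1 and MBOAT2 had a peak at both ages. LPCAT1, which acylates lysophosphatidylcholine, had a fold of 2.52 in the aged list (adjusted p 0.00661) and 1.68 in the young list (adjusted p 3.16e-19). MBOAT2 had 1.67 in the aged list (adjusted p 1.86e-08) and 2.00 in the young list (adjusted p 1.26e-12), in peaks 398 bases apart. MBOAT1, an acyltransferase of lysophosphatidylserine, was aged-only at 2.33, with the lowest p-value of all aged member peaks (adjusted p 2e-17). PLA2G15, a lysosomal phospholipase gene, was aged-only with 2 peaks on chromosome 14. The peak from 35202096 to 35202245 had a fold of 2.67 (adjusted p 0.0012), and that from 35199317 to 35199466 had 2.50 with an adjusted p of 0.111, above 0.05. PLD1, which releases phosphatidic acid from phosphatidylcholine, was young-only at 1.90 (adjusted p 5.01e-11). PLD3 was young-only at 1.57 (adjusted p 2e-21), and although named for phospholipase D it is described in the deposited annotation as an exonuclease.

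Of 3 genes named for apolipoproteins or fatty acid binding proteins, 1 was aged-only (6.15 to 79.2%) and 2 were young-only (20.8 to 93.9%). These wide intervals contain the 26.9% and 41.3% of all genes. APOBR, a receptor for apolipoprotein B, was aged-only with 2 peaks at 1.71 and 1.5 (adjusted p 0.000389 for both) on chromosome 24 (26574219 to 26574517 and 26574616 to 26574864). FABP5, a fatty acid binding protein gene, was young-only at 2.12 (adjusted p 1.58e-21). APOD, an apolipoprotein gene, was young-only at 1.62, with the lowest p-value of all young member peaks (adjusted p 3.16e-36). APOE and FABP4 had no peak in either list.

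Of 7 lipid transfer genes, 5 were in both lists (71.4%, 35.9 to 91.8), beside 31.8% of all genes, and the other 2 were aged-only. The oxysterol-binding protein family exchanges sterols and phospholipids where membranes touch. OSBPL6 had folds of 1.85 in the aged list (adjusted p 0.000295) and 3.50 in the young list (adjusted p 6.31e-18), on chromosome 2 (131733340 to 131734754 in the aged and 131733191 to 131734705 in the young list). OSBPL5, which moves phosphatidylserine from the endoplasmic reticulum to the plasma membrane, had 1.5 in the aged list (adjusted p 0.0363) and 3.43 in the young list (adjusted p 1.58e-16). These young folds exceeded the aged ones by the widest margin among shared members, but the OSBPL5 peaks lay 399 bases apart. OSBPL2 had 1.92 in the aged list (adjusted p 0.00055) and 2.16 in the young list (adjusted p 6.31e-11). It had the highest lower fold of any overlapping pair here, on chromosome 13 (54648748 to 54649141 in the aged and 54648895 to 54649043 in the young list). OSBPL8, a phosphatidylserine carrier gene like OSBPL5, was aged-only at 2.20 (adjusted p 2.04e-08), as was OSBPL9 at 1.73 (adjusted p 2.04e-09).

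Of the START domain genes, STARD3, which takes cholesterol out of late endosomes, had nearly equal folds of 1.59 in the aged list (adjusted p 2.09e-10) and 1.60 in the young list (adjusted p 1e-34). STARD7, which carries phosphatidylcholine to mitochondria, had an aged peak at 1.65 (adjusted p 0.000417) against young peaks at 1.94 (adjusted p 9.77e-09) and 1.60 (adjusted p 3.55e-05). On chromosome 3 the aged STARD7 peak ran from 104146467 to 104146666, against young peaks from 104146865 to 104147014 and from 104147461 to 104147610. None of these overlapped.

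The 6 GPATCH genes, kept as members by name alone, were 1 aged-only, 4 young-only and 1 in both lists. Over all genes with a peak the shares were 26.9%, 41.3% and 31.8%. The young-only share of the GPATCH genes, 66.7%, had an interval of 30 to 90.3% that contains the share of all genes. GPATCH11 was aged-only at 2.50 (adjusted p 0.00417). GPATCH1 (2.00), GPATCH8 (1.89), GPATCH3 (1.67) and GPATCH4 (1.53) were young-only with adjusted p from 6.31e-27 to 3.98e-17. GPATCH2L had aged peaks at 3.18 (adjusted p 8.71e-05) and 1.74 (adjusted p 1.86e-06), against a young peak at 1.67 (adjusted p 3.63e-06). On chromosome 7 these ran from 85684880 to 85685179 and from 85688021 to 85688669 in the aged list, and from 85679232 to 85679382 in the young list.

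Of the 15 genes with a peak in both lists, 10 had overlapping peaks (66.7%), counting a shared base on the same strand as overlap. Of all 1671 genes with a peak in both lists, 84.1% had overlapping peaks. No interval was computed for the share of 15 genes, so the difference is not read as a departure. Counted over peaks, 11 of 32 aged member peaks overlapped a young peak (34.4%, 20.4 to 51.7), beside 41.0% of all aged peaks. Likewise 11 of 34 young member peaks overlapped an aged peak (32.4%, 19.1 to 49.2), beside 34.3% of all young peaks. In the 5 genes without overlap, the aged peak lay 5' of the young peaks in ELOVL4, MBOAT2, OSBPL5 and STARD7 and 3' of them in GPATCH2L. The gaps were 1592, 398, 399 and 198 bases in the first 4 genes and 5497 bases in GPATCH2L, introns included where a span crosses them.

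The 5' boundary of overlapping peaks differed by 49 or 50 bases in 7 of the 11 pairs and by 98 to 100 bases in the other 4. The 3' boundary was the same base in 4 pairs, those of FADS2, PLA2G4B and PNPLA4 and the upstream pair of PLA2G2C. It differed by 49 or 50 bases for LPCAT1, PLA2G2F and STARD3, by 100 bases for the downstream pair of PLA2G2C, by 147 bases for OSBPL2, by 149 for OSBPL6 and by 4132 for ACAD10. In 3 pairs, of ACAD10, OSBPL6 and PNPLA4, a span crossed introns, so that overlap of the spans need not mean overlap of the transcript parts covered.

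**Figure D3:**
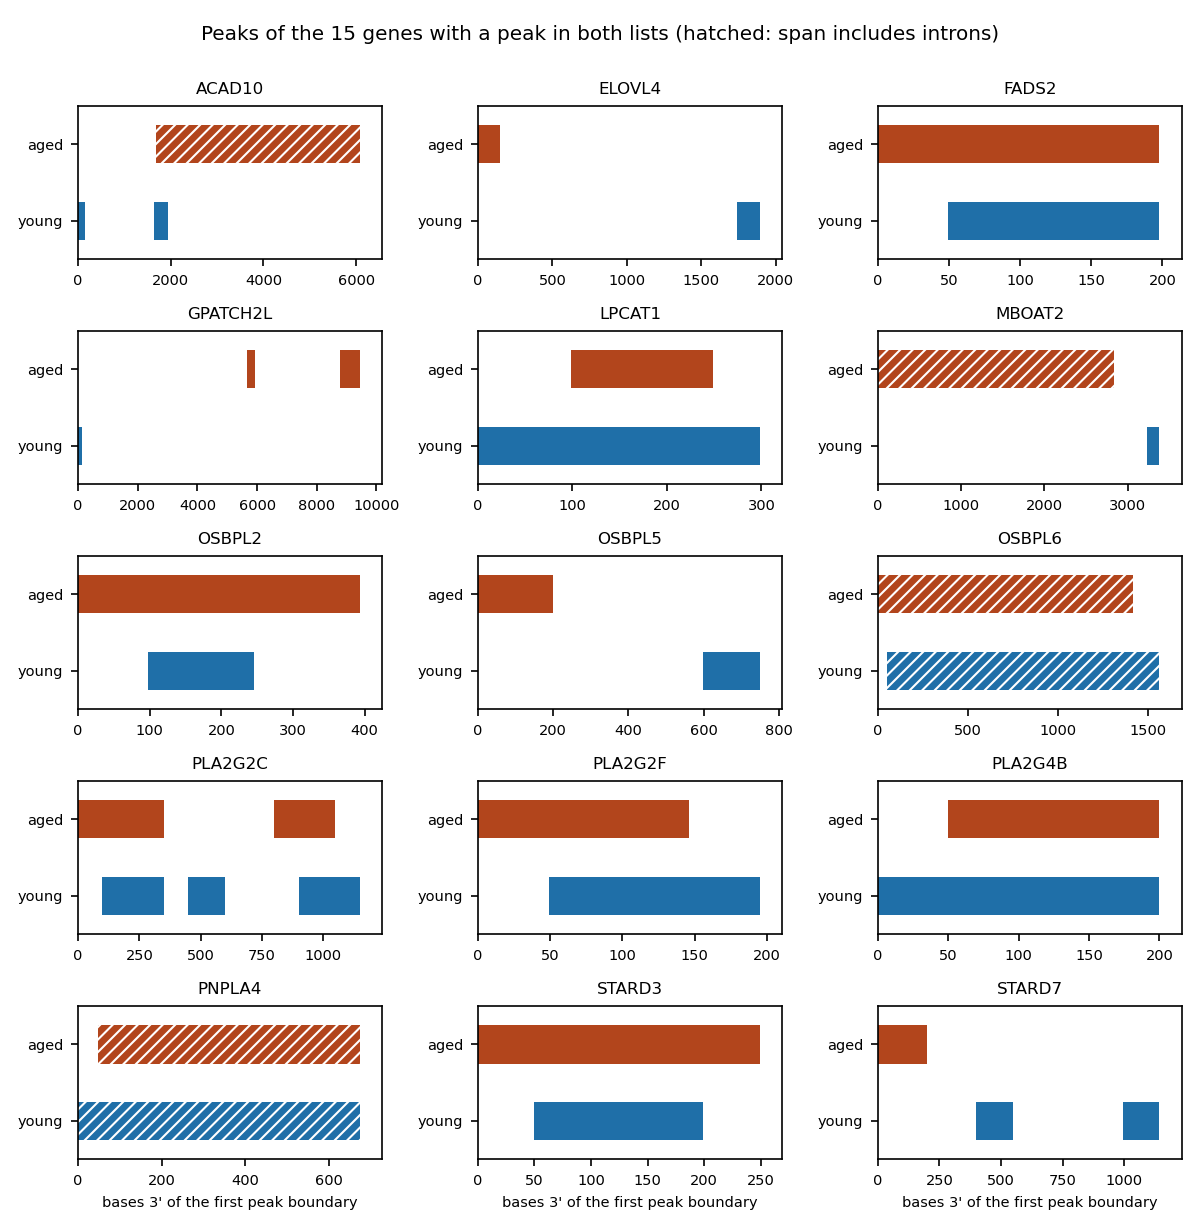
Each panel shows the peaks of a gene found in both lists, aged above young, along the gene in bases 3' of the first peak boundary, with a scale of its own for every gene. Hatched bars are spans that include introns, and ELOVL4, GPATCH2L, MBOAT2, OSBPL5 and STARD7 have no overlap between the lists.

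Where peaks overlapped, the aged fold was the higher in 7 of 11 pairs (63.6%), those of FADS2, PLA2G2C (both pairs), LPCAT1, PLA2G2F, PLA2G4B and ACAD10. It was the lower in 4, those of OSBPL6, PNPLA4, OSBPL2 and STARD3. Over all genes the aged fold was the higher in 42.3% of 1515 pairs. No interval was computed for the share of 11 pairs, so this difference is not read as a departure. The aged over young ratio of folds ranged from 0.529 for OSBPL6 to 2.12 for FADS2 with a median of 1.11, beside a median of 0.961 over all pairs. The p-value was lower in the young list in all 11 pairs, as in 94.0% of all pairs. Aged p-values were thus weaker whichever list had the higher fold, in FADS2 with a log10 p of -8.48 in the aged and -10.7 in the young list and in OSBPL6 with -4.1 in the aged and -17.6 in the young list.

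**Figure D4:**
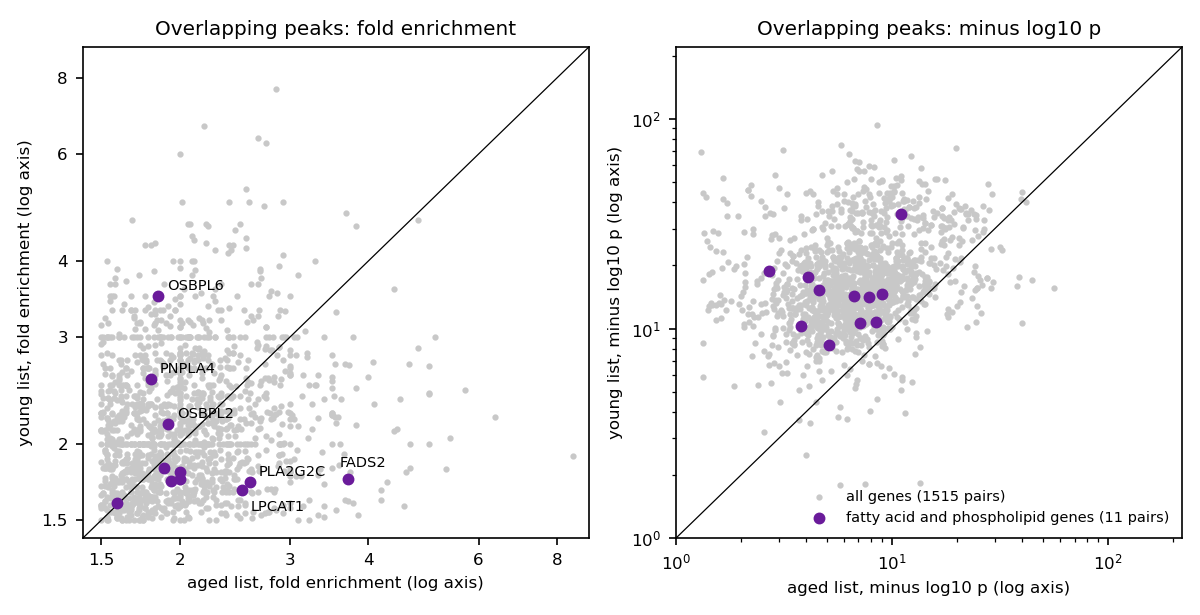
Overlapping peaks of the same gene are plotted by their aged value (horizontal) and young value (vertical), the fold enrichment on the left and minus log10 p on the right, all on log axes, with the line of equal values. The 11 pairs of fatty acid and phospholipid genes lie on both sides of the line for fold and above it, towards the young list, for p.

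Most member peaks at both ages were labelled 3' UTR in the deposited annotation. In the aged list 65.6% of 32 member peaks were labelled 3' UTR, 18.8% (8.89 to 35.3) stop codon and 15.6% exon, beside 66.4%, 15.3% and 15.3% of all aged peaks. In the young list 61.8% of 34 member peaks were labelled 3' UTR, 35.3% (21.5 to 52.1) stop codon and 2.94% exon, beside 47.3%, 41.3% and 9.30% of all young peaks. No member peak was labelled 5' UTR or start codon, labels that 2.49% and 0.492% of all aged and 1.55% and 0.571% of all young peaks carried. The sole young exon label belonged to GPATCH1, against aged exon labels in AGPAT5, GPATCH11, MBOAT2, OSBPL6 and OSBPL9. Stop codon labels in the aged list were carried by 6 of 22 plus-strand and 0 of 10 minus-strand member peaks, where 3 counts would make 30.0%. Over all aged peaks these shares were 27.5% and 2.58%. In the young list 9 of 26 plus-strand and 3 of 8 minus-strand member peaks carried the label, beside 43.1% and 39.0% of all young peaks. The low minus-strand share was thus found over the whole aged list and not over the young list. This limits any comparison of stop codon labels between the ages. Overlapping peaks had the same label in 7 of 11 member pairs, beside 72.5% of all pairs. The labels were 3' UTR in the aged and stop codon in the young list for PLA2G2F and for the downstream pair of PLA2G2C. For ACAD10 they were stop codon in the aged and 3' UTR in the young list, and for OSBPL6 exon in the aged and 3' UTR in the young list. In ACAD10, ELOVL4, PLA2G15 and PLA2G2C a peak labelled 3' UTR lay 5' of a peak labelled stop codon. In PLA2G2F the aged peak labelled 3' UTR began 49 bases 5' of the overlapping young peak labelled stop codon. The labels therefore cannot be read as an order of positions along a single transcript, a limit on the shares by label above.

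The members were a minority of the genes annotated under these names. Of 166 protein-coding genes annotated under these names, 40 had a peak in either list (24.1%, 18.2 to 31.1), beside 29.9% of all annotated coding genes other than those with LOC names. The members ACAD10, PNPLA4 and GPATCH4 were not among the 166, as the gene table does not list them as coding genes under those names. The oxysterol-binding family had 5 of 10 genes with a peak and the secretory and cytosolic phospholipases PLA2G 4 of 17. The fatty acid binding proteins had 1 of 8. By gene name, the lists used here held none of 6 ACOT genes, the acyl-CoA thioesterases, and none of 21 ABHD genes, a family of hydrolases. Genes with LOC names were not counted here, and those with the symbol ACOT13 that had peaks are described at the end. Whether the lists used here are complete for these families is unknown, so nothing is read from these zeros.

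The deposited annotation gives terms to the members, and as families taken by name share functions, lipid terms in common follow in part from the choice. The term endoplasmic reticulum membrane was held by 20 members, 9 aged-only, 5 young-only and 6 in both lists, beside 83, 136 and 81 of the 300 genes with that term. Long-chain fatty-acyl-CoA synthesis was held by 6 genes with a peak, of which 5 were members, ACSL3, ACSL4, ACSL5 and ELOVL5 as aged-only and ELOVL4 in both lists. Ferroptosis was held by 11 genes with a peak, 7 aged-only, 4 young-only and none in both, and the 3 members among them were the aged-only ACSL genes. The same ACSL genes are counted under long-chain fatty-acyl-CoA synthesis and were described above, so these terms add no separate evidence. Background shares are 26.9% for the aged-only class, 41.3% for the young-only class and 31.8% for genes shared by the lists. No interval was computed for either term, so no departure is read from them. Of the 5 genes with the term alpha-linolenic acid metabolism, all were members, with ACOX3 young-only and FADS2, PLA2G2C, PLA2G2F and PLA2G4B in both lists. The term lipid droplet was held by 7 members, 2 aged-only, 2 young-only and 3 in both lists, beside 8, 7 and 13 of the 28 genes with that term. Glycerophospholipid metabolism was held by 14 members, 4 aged-only, 5 young-only and 5 in both, beside 11, 12 and 9 of 32 genes.

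Other genes of fatty acid and phospholipid metabolism came from a list of 114 symbols that the names do not take. Of the 38 found in the lists, 9 were aged-only (23.7%, 13 to 39.2), against 26.9% of all genes, and 20 were young-only (52.6%, 37.3 to 67.5), against 41.3%. Another 9 had a peak in both lists. Both intervals contain the share of all genes. With exon and UTR labels alone the order turned, with 11 aged-only and 9 young-only genes of this list, beside 41.3% and 32.4% of all genes. Ranked by fold, the aged-only genes began with INSIG1 (2.47, adjusted p 5.75e-05), which holds back sterol-regulated transcription, and CDS1 (2.43, adjusted p 3.98e-11), which makes the precursor of phosphatidylinositol. SELENOI (2.22, adjusted p 1.58e-15), of phosphatidylethanolamine synthesis, and the seipin gene BSCL2 (2.04, adjusted p 0.000269), of lipid droplet formation, came next. The young-only genes began with MLYCD (3.57, adjusted p 2.51e-16), which degrades malonyl-CoA and so frees fatty acid oxidation, and G0S2 (2.80, adjusted p 1.41e-09), an inhibitor of the triglyceride lipase. VLDLR (2.64, adjusted p 7.94e-24), a lipoprotein receptor gene, and INSIG2 (2.60, adjusted p 2.51e-15), the paralogue of INSIG1, followed.

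Among the pathway genes in both lists, DECR1, an enzyme of unsaturated fatty acid oxidation, had folds of 2.94 in the aged and 3.00 in the young list. PPARA, the fatty acid sensing nuclear receptor gene, had 2 aged peaks with a highest fold of 3.33, against 3 young peaks with a highest fold of 2.60. The electron transfer gene ETFDH had 2.00 in the aged and 2.43 in the young list, and the phosphatidylinositol transfer gene PITPNB 1.94 and 1.83. Overlapping peaks were present in all 4 of these genes.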

How the data were processed

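The 4 samples were m6A immunoprecipitates and inputs of aged and young ovary, assigned to groups from their titles. Per the labels' protocols, libraries came from a stranded total RNA kit on an Illumina NovaSeq. The submitters' processing notes name ChIPseeker and DESeq2 without a role. Aligner, peak caller, build and depth: not given in the sources used here. Per the file headers, the authors list a fold (a linear ratio) and raw and adjusted p-values of each peak. The deposited log10 p, a score here, was used for ranks. No deposited p-value exceeded 0.049.

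Members and lists were chosen with earlier results of these data known. Peak starts were raised by 1 base, to 1-based positions. Chromosome numbers and counts of annotated genes came from the RefSeq gene table of ARS-UI_Ramb_v3.0, matched by gene identifier for 99.5% of peaks, and its coordinates were not printed. Of 114 pathway symbols, 112 were found. Values were given for every member and for up to 4 pathway genes per class by fold, and coordinates for the highest fold of each list, the overlapping pair with the highest lower fold and genes with 2 or more peaks; further coordinates, and genes named for having no peak, were chosen after the values were seen. Genome sequence was not used here. Overlap code was tested on simulated data. Alternatives were a stricter fold, adjusted p capped at 0.01, lists of equal length, peaks within 1 exon, no GPATCH genes, exon and UTR labels, 50% overlap and single strands; LOC genes matched by symbol were added after seeing the data. Tools were matplotlib 3.10.9, scipy 1.17.1, numpy 2.4.6, pandas 2.3.3 and Python 3.11.15.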

Additional observations from a re-analysis of the deposited data

How the results depend on the processing

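Of 71 values recomputed for 11 results, 62 stayed within 1.5 times the reported count or within the 95% interval of the reported share or median, and 9 moved. At a fold of at least 2.00, members in both lists fell to 1 of 28 (3.57%), beside 19.1% of all genes at that fold. The shares of aged and of young member peaks overlapping the other list were both 0% (0 to 18.4 and 0 to 22.8). The young stop codon share was 15.4% (4.33 to 42.2), the young median fold 2.33, and the aged-only pathway genes 4. Overlap and stop codon shares over all peaks were not computed at that fold, so these values are not read as particular to the members. The median moved because the setting removes the lower folds. The overlap shares were bound to be 0%, as each of the 11 overlapping member pairs held a peak below 2.00, the highest of these 1.92 in OSBPL2. Members in both lists likewise fell as genes lost their peaks below 2.00. For the other values the cause was not tested. With exon and UTR labels alone, 13 members were aged-only and 9 young-only, and 11 pathway genes were aged-only and 9 young-only, beside 41.3% and 32.4% of all genes, since stop codon labels, more frequent in the young list, were left out. The aged stop codon share on the minus strand alone was 0%. No paired analysis was possible because the ages share no replicate number and each has 1 list. Peaks near the deposited limits can be missing from a list for want of depth, which is unknown.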

Other observations

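Genes without a name of their own in the files added 5 genes through the symbol column. They are reported as uncertain, since gene copies share a symbol. Of 3 genes with the symbol APOL3, an apolipoprotein L gene, on chromosome 3, LOC105605766 (fold 2.14) and LOC105605770 (1.5) were aged-only. LOC101102047 had a stop codon peak with the same boundaries in both lists (180137052 to 180137251), at folds of 2.00 in the aged and 2.38 in the young list. The 2 genes with the symbol ACOT13, an acyl-CoA thioesterase gene, on chromosome 20 had peaks in both lists. LOC114109664 had folds of 2.41 in the aged and 2.67 in the young list, in overlapping peaks. LOC114109597 had 1.67 (adjusted p 0.0933) in the aged and 2.60 in the young list, in peaks that did not overlap.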
